A study of Mus musculus with 8 samples.

Results

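Toll-like receptors are pattern receptors that bind conserved microbial molecules and signal through adaptor proteins to NF-kB and interferon regulatory factors. TLR2 works at the cell surface as a heterodimer with TLR1 or TLR6 and binds bacterial lipopeptides, TLR4 binds lipopolysaccharide, and RP105 is a receptor homologue that sits on B cells in a complex with MD-1. TLR3, TLR7 and TLR9 bind RNA or DNA in endosomes, where the membrane protein UNC93B1 delivers them. B cells carry these receptors beside the antigen receptor, and engaging them drives proliferation and antibody secretion.

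The 10 genes described here are Tlr1, Tlr2, Tlr4 and Tlr6 at the surface, Cd180 and Ly86 for RP105 and MD-1, Tlr3, Tlr7 and Tlr9 in endosomes, and Unc93b1. They were chosen by name and matched through Ensembl identifiers, 10 of the 43629 genes in the deposited count table. Their levels were set between 4 RNA-seq libraries labelled GFP-ZFP36L1 and 4 control libraries, made from mouse spleen B cells that were sorted as follicular. Per the labels, the libraries labelled GFP-ZFP36L1 had the genotype Rosa26GFPZFP36L1 CD23cre/+, and the controls had Rosa26GFPZFP36L1 without the Cre, so the Rosa26 allele is shared by both groups. ZFP36L1 recognises AU-rich stretches of 3′ UTRs and recruits enzymes that shorten the poly(A) tail and degrade the mRNA. CD23 is a surface protein of mature B cells, and in this design the effect of the Cre and that of the fusion protein cannot be told apart. The sort gate is given as B220+CD93+CD21+CD23+, after enrichment of B cells with an isolation kit. CD93 is a marker of immature B cells that follicular gates usually exclude, and whether its sign in the label is right is not known. The age of the mice is not stated in the labels. Whether each library stands for its own animal is not stated either, so the p-values rest on the spread of these libraries, which may be technical.

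Total counts lay between 38947758 and 48328512 in the libraries labelled GFP-ZFP36L1 and between 40976668 and 51024233 in the controls. Zfp36l1 itself was at 402 to 471 CPM (read counts scaled to a library size of 1000000) in the libraries labelled GFP-ZFP36L1 and at 523 to 599 CPM in the controls, so it was lower in the libraries whose label names the protein (log2 fold change -0.32 ± 0.07 SE, adjusted p = 0.0348). How reads of the transgene were counted is not stated in the labels, and each direction below is that of the labelled libraries. Along the first principal component, which held 37.3% of the variance, replicate 4 of the libraries labelled GFP-ZFP36L1 lay farthest out, at 33, while the others of its group lay between -7.54 and 13.3. The controls lay between -23.1 and -3.26 on that component. Xist was at 0.0731 to 0.184 CPM in the libraries labelled GFP-ZFP36L1 and at 0.0239 to 0.221 CPM in the controls, and Y-linked Ddx3y averaged 166 ± 15.4 and 174 ± 23.4 CPM in those groups (SD, n = 4 each), so all 8 libraries showed a male pattern, which bears on X-linked Tlr7.

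Sequences are shown where they bear on the genes that stood apart or on the protein named in the labels. Tlr2 and Tlr6 were the members whose libraries did not overlap between groups, so a promoter window of each is printed, from 250 bases before to 50 bases after a RefSeq start (GRCm38.p6). The Tlr2 window is chr3:83841559-83841858 on the minus strand, and the Tlr6 window is chr5:64959117-64959416 on the minus strand, the first of 2 RefSeq windows for that gene. This Tlr6 window lies inside the annotated gene. The other, chr5:64959999-64960298, spans the annotated 5′ end and is not printed because it held no match. For both Tlr6 windows, the last 50 bases were found in none of the annotated transcripts. Capitals mark matches on either strand to GGGANNNCC, an NF-kB-like core, and in Tlr6 also to GAAANNGAA, a core of the interferon-stimulated response element.
Tlr2 promoter: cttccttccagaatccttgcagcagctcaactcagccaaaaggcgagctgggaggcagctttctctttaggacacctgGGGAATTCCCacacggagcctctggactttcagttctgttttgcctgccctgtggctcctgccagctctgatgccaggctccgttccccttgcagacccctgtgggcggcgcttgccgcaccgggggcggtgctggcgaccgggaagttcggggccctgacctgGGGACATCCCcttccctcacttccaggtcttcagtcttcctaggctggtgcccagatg
Tlr6 promoter: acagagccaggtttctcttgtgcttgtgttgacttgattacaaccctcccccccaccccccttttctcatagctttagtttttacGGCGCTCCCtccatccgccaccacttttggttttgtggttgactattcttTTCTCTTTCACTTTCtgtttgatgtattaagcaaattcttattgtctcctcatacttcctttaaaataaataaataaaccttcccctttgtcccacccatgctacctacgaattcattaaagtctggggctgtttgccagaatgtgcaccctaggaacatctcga

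The NF-kB-like letters occurred in the Tlr2 window on both strands at -172 and -171 and again at -8 and -7 from the start, each pair being 1 overlapping stretch. In the Tlr6 window they occurred at -165, and the interferon-response letters occurred at -115 and -109, overlapping each other. Of 32851 RefSeq promoters of this length, 18.6% held the NF-kB-like letters and 8.6% the interferon-response letters. The Tlr6 window at the annotated 5′ end held neither. Windows were matched for 7 of the 10 genes, namely Tlr1, Tlr2, Tlr3, Tlr6, Tlr9, Cd180 and Ly86. Among those of the other 5, the interferon-response letters were in the Ly86 window at its start and the NF-kB-like letters in the Tlr3 window at 41, and GAGGAA, an ETS core held by 28.3% of promoters, was in windows of Tlr1 and Tlr9.

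The heptamer TATTTAT, the DNA spelling of the element that ZFP36-type zinc fingers bind in RNA, was sought in the longest annotated 3′ UTR of each gene (GENCODE, GRCm38). It was found in the 3′ UTRs of Tlr4 and Tlr3 and in those of none of the other 8 genes, against 29.7% of the 10961 tested genes with a 3′ UTR. The Tlr2 3′ UTR had 148 bases and that of Tlr1 had 166, while those of Tlr3, with 1496 bases, Cd180, with 1391, and Tlr4, with 1321, were longer than the median of 1164, and that of Cd180 held no heptamer. The sites are shown in their transcript strand with the heptamer in capitals. They lie at chr4:66842013-66842039 on the plus strand, and at chr8:45396808-45396834 and chr8:45396504-45396530 on the minus strand.
Tlr4 site: aagaatgctaTATTTATtaaatacaat
Tlr3 first site: aagttttgtaTATTTATttatatgtat
Tlr3 last site: gtcttgaactTATTTATctctgcctcc

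A further match in Tlr3 begins 4 bases after the start of its first site and overlaps it. Neither Tlr4 nor Tlr3 passed the test between groups, as described with their values below.

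Of the 10 genes, Tlr2 rose in the libraries labelled GFP-ZFP36L1 and the other 9 did not pass the test (edgeR quasi-likelihood, Benjamini-Hochberg adjusted p under 0.05 over all 13035 tested genes). Over all tested genes 3.12% were called, 1.83% as higher and 1.30% as lower. Tlr2 and Tlr6 had libraries that did not overlap between groups, 2 of 10 genes against 11.2% of tested genes. An unadjusted p under 0.05 was reached by 7 of the 10, namely Tlr1, Tlr2, Tlr6, Ly86, Tlr3, Tlr7 and Tlr9, against 17.3% of tested genes. The fitted difference was positive for 7 genes and negative for Tlr1, Ly86 and Unc93b1, with a median log2 fold change of 0.15 over the 10, beside -0.01 over all tested genes. In bulk RNA, fewer cells of a type and less RNA per cell cannot be told apart, and this holds for every difference below.

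**Figure D1:**
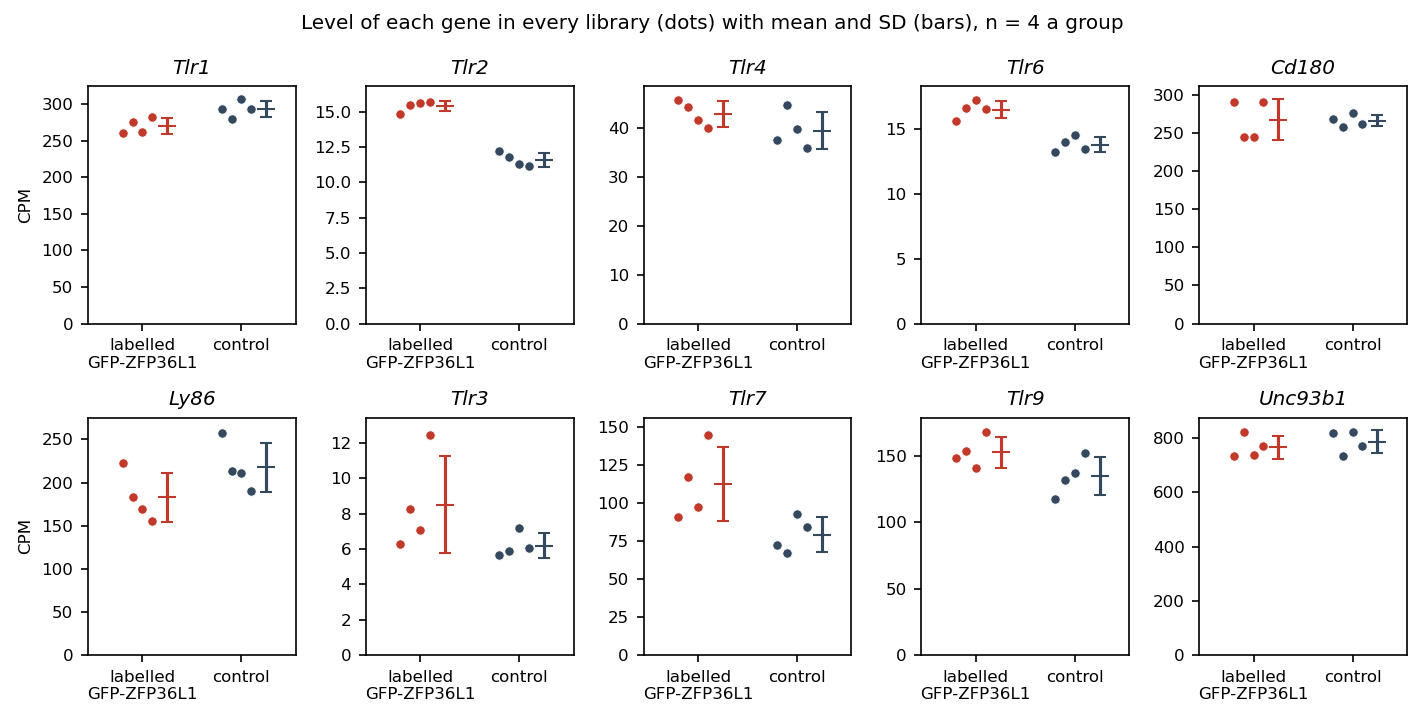
Level in CPM on TMM-scaled library sizes of each gene in the 4 libraries labelled GFP-ZFP36L1 (red, left) and the 4 control libraries (dark, right), with mean and SD beside the dots. All 4 red dots lie above all 4 dark dots for Tlr2 and Tlr6, and the groups overlap for the other 8 genes.

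Among the surface receptors, Tlr2 was at 14.8, 15.5, 15.6 and 15.7 CPM in the libraries labelled GFP-ZFP36L1, against 12.2, 11.8, 11.3 and 11.1 CPM in the controls. Every library labelled GFP-ZFP36L1 lay above every control, and the means were 15.4 ± 0.38 and 11.6 ± 0.49 CPM (SD, n = 4 each). The log2 fold change was 0.41 ± 0.07 (SE), a 1.33-fold higher level with a 95% interval of 0.27 to 0.55 on the log2 scale and an adjusted p of 0.00958 by edgeR. In raw counts Tlr2 (ENSMUSG00000027995, chr3:83836272-83841767 in GRCm38, as for all genes here, minus strand) had 453 to 753 per library. Its log2 fold change lay between 0.39 and 0.44 under all 17 alternatives tried. The call was lost without control replicate 3, at an adjusted p of 0.0518. In the authors' deposited table Tlr2 has a log2 fold change of 0.37 and an adjusted p of 4.48e-06.

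Tlr6, which pairs with TLR2 for diacylated lipopeptides, was at 15.7, 16.6, 17.3 and 16.5 CPM in the libraries labelled GFP-ZFP36L1, against 13.2, 14.0, 14.6 and 13.5 CPM in the controls. These groups did not overlap either, and the means were 16.5 ± 0.65 and 13.8 ± 0.59 CPM (SD, n = 4 each). Its log2 fold change was 0.26 ± 0.07 (95% interval 0.12 to 0.40), and the edgeR adjusted p of 0.0571 missed the threshold. It passed with DESeq2 (adjusted p = 0.00949), limma voom (0.0185), a filter at 1 CPM (0.0488), 1 surrogate variable (0.0206), the title number as a term (0.028) and without replicate 1 of the libraries labelled GFP-ZFP36L1 (0.0277). The authors' deposited table gives Tlr6 a log2 fold change of 0.24 and an adjusted p of 0.0103.

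Tlr1, the partner of TLR2 for triacylated lipopeptides, was at 261, 276, 262 and 283 CPM in the libraries labelled GFP-ZFP36L1, against 294, 280.1, 307 and 294 CPM in the controls. Here the means ran the other way, 270.0 ± 10.7 and 294 ± 11.1 CPM (SD, n = 4 each), and the groups overlapped at 1 library on each side. The log2 fold change was -0.12 ± 0.05 with an adjusted p of 0.272 by edgeR. Tlr1 (chr5:64924679-64933563) and Tlr6 (chr5:64952031-64960097) are neighbours on the minus strand and near copies in part. They share 259 stretches of 100 bases, 8.6% of those of Tlr1 and 7.1% of those of Tlr6. Reads from these stretches could be assigned to either or to neither, so both counts are uncertain. Tlr6 averaged 16.5 CPM in the libraries labelled GFP-ZFP36L1 and 13.8 CPM in the controls, far below Tlr1. Misassigned Tlr1 reads could therefore make up a larger share of the Tlr6 count than 7.1%. Their part in the level of Tlr6 and in its ratio to Tlr1 was not tested. No other pair among the 10 genes shared a stretch of that length.

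The lipopeptide receptor subunits were also set against each other per length of exon. The ratio of Tlr2 to Tlr1 in CPM per kilobase was 0.0632, 0.0623, 0.0662 and 0.0617 in the libraries labelled GFP-ZFP36L1, against 0.0461, 0.0466, 0.0407 and 0.042 in the controls. For Tlr6 to Tlr1 the ratio was 0.054, 0.0542, 0.0593 and 0.0526 in the libraries labelled GFP-ZFP36L1, against 0.0405, 0.0449, 0.0425 and 0.0411 in the controls. Neither ratio overlapped between the groups, and no test was made on the ratios. The levels behind them already ran this way, with Tlr2 and Tlr6 apart and Tlr1 lower on average. The ratios are therefore not a separate result.

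**Figure D2:**
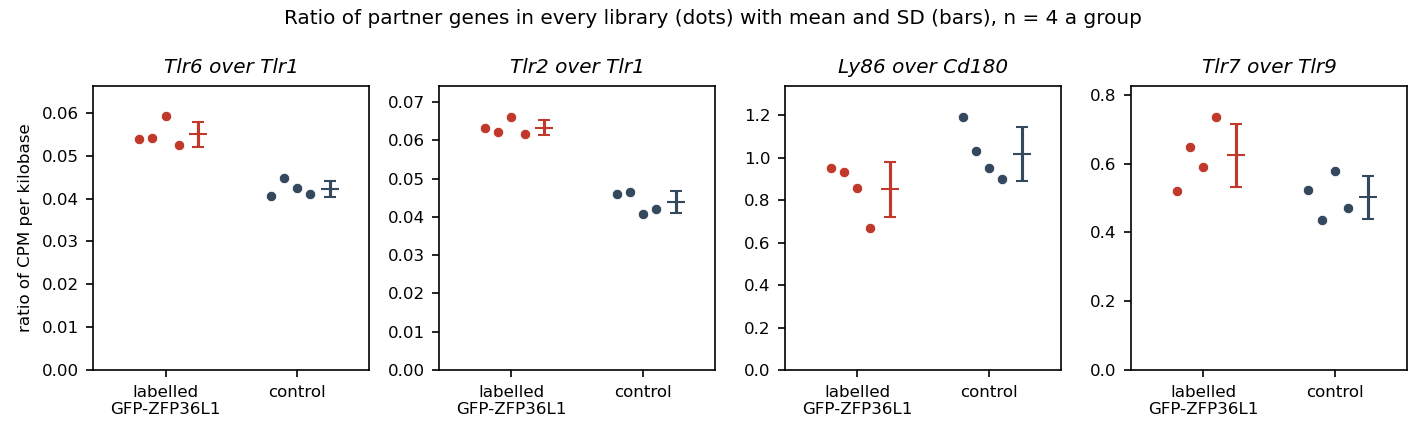
Ratios of levels in CPM per kilobase of exon sequence in each library labelled GFP-ZFP36L1 (red, left) and each control library (dark, right), with mean and SD, n = 4 a group. The ratios of Tlr6 and Tlr2 to Tlr1 do not overlap between groups, while Ly86 over Cd180 and Tlr7 over Tlr9 do.

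Tlr4 (chr4:66827584-66930284, plus strand), the lipopolysaccharide receptor, was at 45.8, 44.3, 41.6 and 40.0 CPM in the libraries labelled GFP-ZFP36L1, against 37.5, 44.7, 39.7 and 36.0 CPM in the controls. The groups overlapped, with a log2 fold change of 0.12 ± 0.07 and an adjusted p of 0.441. Its 95% interval was -0.04 to 0.28, and leaving out 1 control library moved the log2 fold change to between 0.08 (without replicate 4) and 0.19 (without replicate 2). Of its co-receptors, Ly96, which encodes MD-2, was at 5.80, 5.52, 5.95 and 6.92 CPM in the libraries labelled GFP-ZFP36L1, against 4.63, 4.49, 3.95 and 4.89 CPM in the controls. Ly96 did not overlap between groups, and its log2 fold change of 0.43 ± 0.11 had an adjusted p of 0.0584. Cd14 had 0 to 3 counts in any library and was too low to test.

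For the RP105 complex, neither gene passed the test. Cd180, which encodes RP105, was at 291, 244, 244 and 290.0 CPM in the libraries labelled GFP-ZFP36L1, against 268, 258, 275 and 262 CPM in the controls. The libraries labelled GFP-ZFP36L1 lay on both sides of the controls, at 267 ± 26.4 and 266 ± 7.53 CPM (SD, n = 4 each), with a log2 fold change of 0.01 ± 0.07 and a 95% interval of -0.14 to 0.16. The sign of this value turned under 4 alternatives, to between -0.06 and -0.01. Exons of Cd180 (chr13:102693558-102739629, plus strand) share 182 bases with Mast4 on the opposite strand, and whether the counting used strand is not stated.

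Ly86, which encodes the MD-1 subunit that RP105 needs for surface expression, was at 222, 184, 169 and 156 CPM in the libraries labelled GFP-ZFP36L1, against 257, 213, 211 and 190 CPM in the controls (chr13:37345208-37419036, plus strand). The groups overlapped, and the means were 183 ± 28.7 and 218 ± 28.3 CPM (SD, n = 4 each). On the log2 scale the difference was -0.25 ± 0.11, with an adjusted p of 0.286, and -0.16 without control replicate 1. Each sample title carries a number whose meaning the labels do not give, and in both groups a higher number went with a lower Ly86 level. With that number as a linear term the log2 fold change was -0.18 and the adjusted p 0.0315. With 1 surrogate variable, a factor estimated from the counts themselves, the values were -0.18 and 0.0225, so both settings passed the threshold. The surrogate variable itself fell with the title number, from 0.542 at number 1 to -0.64 at number 8, so these settings are not separate checks. Position on the first principal component also rose with that number within each group. The ratio of Ly86 to Cd180 per kilobase was 0.95, 0.932, 0.857 and 0.668 in the libraries labelled GFP-ZFP36L1, against 1.19, 1.03, 0.95 and 0.9 in the controls, with overlap.

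Of the endosomal receptors, Tlr7, the receptor for single-stranded RNA, was at 90.7, 117, 97.6 and 145 CPM in the libraries labelled GFP-ZFP36L1, against 72.3, 67.5, 93.1 and 84.1 CPM in the controls. Only replicate 1 of the libraries labelled GFP-ZFP36L1 lay below the highest control, and the means were 113 ± 24.4 and 79.3 ± 11.6 CPM (SD, n = 4 each). Tlr7 had a log2 fold change of 0.51 ± 0.15 (95% interval 0.16 to 0.85), with an adjusted p of 0.118 by edgeR, and it passed the threshold with DESeq2 at 0.0104. The authors' deposited table gives Tlr7 a log2 fold change of 0.37 and an adjusted p of 0.00959. DESeq2 as run here gave a log2 fold change of 0.51, so the deposited value is not on a like footing with those here. Replicate 4 of the libraries labelled GFP-ZFP36L1, the one farthest out on the first principal component, was highest, and without it the log2 fold change was 0.37 (adjusted p = 0.179). Tlr7 lies on chromosome X (chrX:167304929-167330558, minus strand).

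Tlr9, the receptor for DNA with unmethylated CpG, was at 148, 154, 141 and 168 CPM in the libraries labelled GFP-ZFP36L1, against 118, 132, 137 and 152 CPM in the controls. The groups overlapped, with means of 153 ± 11.5 and 135 ± 14.3 CPM (SD, n = 4 each) and a log2 fold change of 0.18 ± 0.08 (adjusted p = 0.255). The ratio of Tlr7 to Tlr9 per kilobase was 0.521, 0.65, 0.59 and 0.736 in the libraries labelled GFP-ZFP36L1, against 0.523, 0.437, 0.578 and 0.471 in the controls, again with overlap. Tlr9 (chr9:106222598-106226883, plus strand) was thus the more abundant of these sensors per length in all 8 libraries.

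Tlr3 (chr8:45395665-45411080, minus strand), the receptor for duplex RNA and the least abundant of the 10 genes per length, was at 6.31, 8.23, 7.06 and 12.4 CPM in the libraries labelled GFP-ZFP36L1, against 5.63, 5.89, 7.21 and 6.04 CPM in the controls. The groups overlapped, and 1 library, replicate 4 of those labelled GFP-ZFP36L1, stood above the rest. This gave a log2 fold change of 0.46 ± 0.19 with an adjusted p of 0.233, and one of 0.22 without that library. Its exons share 381 bases with an antisense gene, Gm45542, so its counts of 236 to 511 per library could include antisense reads if strand was not used.

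Unc93b1 (chr19:3935186-3949340, plus strand), which carries TLR3, TLR7 and TLR9 out of the endoplasmic reticulum, was at 733, 824, 737 and 772 CPM in the libraries labelled GFP-ZFP36L1, against 820.5, 733, 822 and 772 CPM in the controls. The groups covered nearly the same range, with a log2 fold change of -0.04 ± 0.07 and a 95% interval of -0.19 to 0.11.

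Levels were compared between genes in CPM per kilobase of exon sequence. Unc93b1 was highest, at 253 ± 14.0 in the libraries labelled GFP-ZFP36L1 and 260 ± 14.1 in the controls (SD, n = 4 each). Tlr1 came next at 80.7 ± 3.2 and 87.8 ± 3.31, which makes it the most abundant of the receptors proper, well above the partner it shares dimers with. Cd180, at 59.3 ± 5.86 and 59.0 ± 1.67, and Ly86, at 50.3 ± 7.91 and 59.9 ± 7.8, had overlapping ranges within each group. Tlr9 was at 43.9 ± 3.3 and 38.7 ± 4.11, overlapping Ly86 in the libraries labelled GFP-ZFP36L1 and below Cd180 in the controls. Tlr7 followed at 27.6 ± 5.98 and 19.4 ± 2.83.

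The scarce receptors began with Tlr4, at 7.72 ± 0.47 CPM per kilobase in the libraries labelled GFP-ZFP36L1 and 7.10 ± 0.69 in the controls. Tlr2 was at 5.11 ± 0.12 and 3.84 ± 0.16, and Tlr6 at 4.44 ± 0.18 and 3.71 ± 0.16. The ranges of Tlr2 and Tlr6 overlapped in the controls and were apart in the libraries labelled GFP-ZFP36L1. Tlr3 was last at 1.64 ± 0.53 and 1.19 ± 0.13. Thus Tlr2, the gene that rose, was among the 3 least abundant of the 10 in each group. All other neighbours in the order had ranges that did not overlap.

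**Figure D3:**
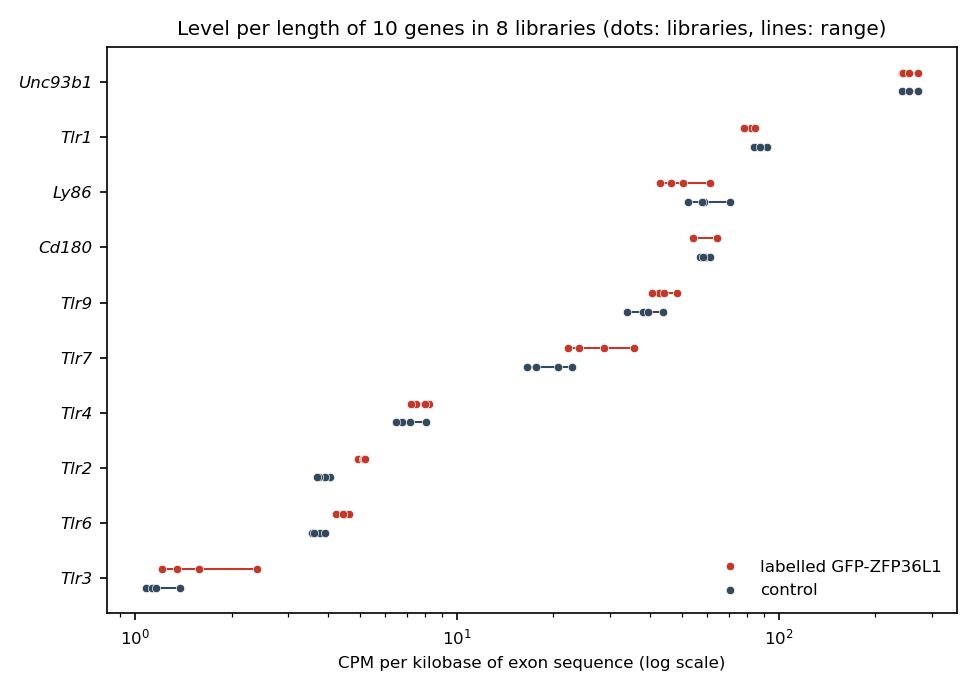
Level per length of each gene (rows, in the order of the control means) in CPM per kilobase of exon sequence on a log axis. Each dot is a library, red for those labelled GFP-ZFP36L1 (upper row of each gene) and dark for controls, and lines join the lowest and the highest. Unc93b1 lies at the right, near 253 in the red group, and Tlr3 at the left, near 1.64.

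Of the remaining mouse Toll-like receptors, Tlr12 was high enough to test. Tlr12, a receptor for profilin, was at 4.10, 4.72, 5.30 and 5.53 CPM in the libraries labelled GFP-ZFP36L1, against 3.17, 4.06, 4.78 and 4.59 CPM in the controls, with a log2 fold change of 0.24 ± 0.15 (adjusted p = 0.434), and of 0.13 without control replicate 1. Tlr5 had 0 to 1 counts, Tlr8 0 to 2, Tlr11 1 to 5 and Tlr13 0 to 5 in any library, all too low to test.

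Other genes of the pathway were taken from 7 lists, 66 genes in all, of which 61 were tested. Irf7 and Ctsb rose, Irak2 fell, and 58 did not pass the edgeR test. These 3 calls among 61 genes stand beside 3.12% of all tested genes. The median log2 fold change over the 61 was -0.01, beside -0.01 over all tested genes, and 18 had an unadjusted p under 0.05, beside 17.3% of all tested genes. Of the 17 alternatives, 4 ended the call of Ctsb, 7 that of Irf7 and 7 that of Irak2.

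Among 12 adaptors and proximal kinases, Irak2, a kinase that carries signals from the MyD88 complex, was called as lower. It was at 142, 143, 132 and 135 CPM in the libraries labelled GFP-ZFP36L1, against 164, 158, 161 and 159 CPM in the controls, with no overlap. The log2 fold change was -0.21 ± 0.05 with an adjusted p of 0.0344, and the call was lost, at adjusted p-values of 0.0592 to 0.118, when any library other than replicate 1 of those labelled GFP-ZFP36L1 was left out. Ticam1, the adaptor TRIF used by TLR3 and TLR4, was at 38.6, 36.4, 31.9 and 35.8 CPM in the libraries labelled GFP-ZFP36L1, against 29.8, 31.0, 29.0 and 29.5 CPM in the controls. Its groups did not overlap, and its log2 fold change of 0.26 ± 0.06 had an adjusted p of 0.0524. Ticam2, which encodes the bridging adaptor TRAM, had a log2 fold change of 0.53 ± 0.17 and an adjusted p of 0.115.

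The transcription factor list of 6 genes held Irf7, an interferon regulatory factor activated downstream of TLR7 and TLR9. It was at 63.2, 93.8, 73.0 and 95.4 CPM in the libraries labelled GFP-ZFP36L1, against 53.2, 50.04, 57.1 and 52.0 CPM in the controls, and every library labelled GFP-ZFP36L1 lay above every control. Irf7 rose by a log2 fold change of 0.62 ± 0.12 (adjusted p = 0.0255). The call was lost, at adjusted p-values of 0.0571 to 0.0817, without replicate 2 of the libraries labelled GFP-ZFP36L1 or any control. Testing unfiltered genes (0.0653) or adding the title number (0.0623) ended it as well. Irf5, another factor of this family used by MyD88, had a log2 fold change of -0.19 ± 0.07 and an adjusted p of 0.141, and Irf3 was at -0.05 with an adjusted p of 0.684.

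Endosomal proteases and nucleases cut the receptors into their active form or destroy their ligands. Of 10 genes, Ctsb, encoding cathepsin B, rose, beside 3.12% called over all tested genes, and 6 had an unadjusted p under 0.05, beside 17.3%. Ctsb was at 106, 99.3, 94.8 and 108 CPM in the libraries labelled GFP-ZFP36L1, against 88.6, 84.1, 84.7 and 83.2 CPM in the controls. Its log2 fold change was 0.26 ± 0.05 with an adjusted p of 0.0263, lost without replicate 2 of the libraries labelled GFP-ZFP36L1 (0.0564) and without control replicates 2 (0.0895), 3 (0.0982) and 4 (0.0771). Ctsl, cathepsin L, had a log2 fold change of 0.35 ± 0.10 (adjusted p = 0.0942). Pld4, an exonuclease that degrades DNA ligands of TLR9, had one of -0.23 ± 0.07 (adjusted p = 0.115).

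In the other lists edgeR made no call. Beside the counts below, 17.3% of all tested genes had an unadjusted p under 0.05. Over all genes DESeq2 called 895 and voom 1064, against 407 by edgeR. Of 11 TAK1, IKK and TBK1 kinases, 1 reached an unadjusted p under 0.05, while DESeq2 made 1 call and voom 0. The gene was Ikbke, encoding the kinase IKK-epsilon, at a log2 fold change of 0.43 ± 0.14 (adjusted p = 0.139) and of 0.26 without replicate 4 of the libraries labelled GFP-ZFP36L1, followed by Tab3 at 0.11 (0.392) and Ripk1 at 0.11 (0.421). Of 9 tested co-receptor, folding and trafficking genes, 1 had an unadjusted p under 0.05, and DESeq2 and voom called 1 each, Ly96. Ap3b1, a subunit of the adaptor complex that sorts endosomal receptors, was at 0.11 (adjusted p = 0.331), and Cd36, a co-receptor of the TLR2 and TLR6 dimer, at -0.15 (0.427), or -0.09 without replicate 3 of either group. Of 12 negative regulators, 4 reached an unadjusted p under 0.05, while DESeq2 made 0 calls and voom 2. They were led by Irak3, an inhibitory member of the IRAK family, at -0.14 ± 0.05 (adjusted p = 0.167), Tnfaip3, the ubiquitin editor A20, at 0.11 (0.248) and the inhibitory receptor gene Pirb at -0.21 (0.259), or -0.11 without replicate 4 of the libraries labelled GFP-ZFP36L1.

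**Figure D4:**
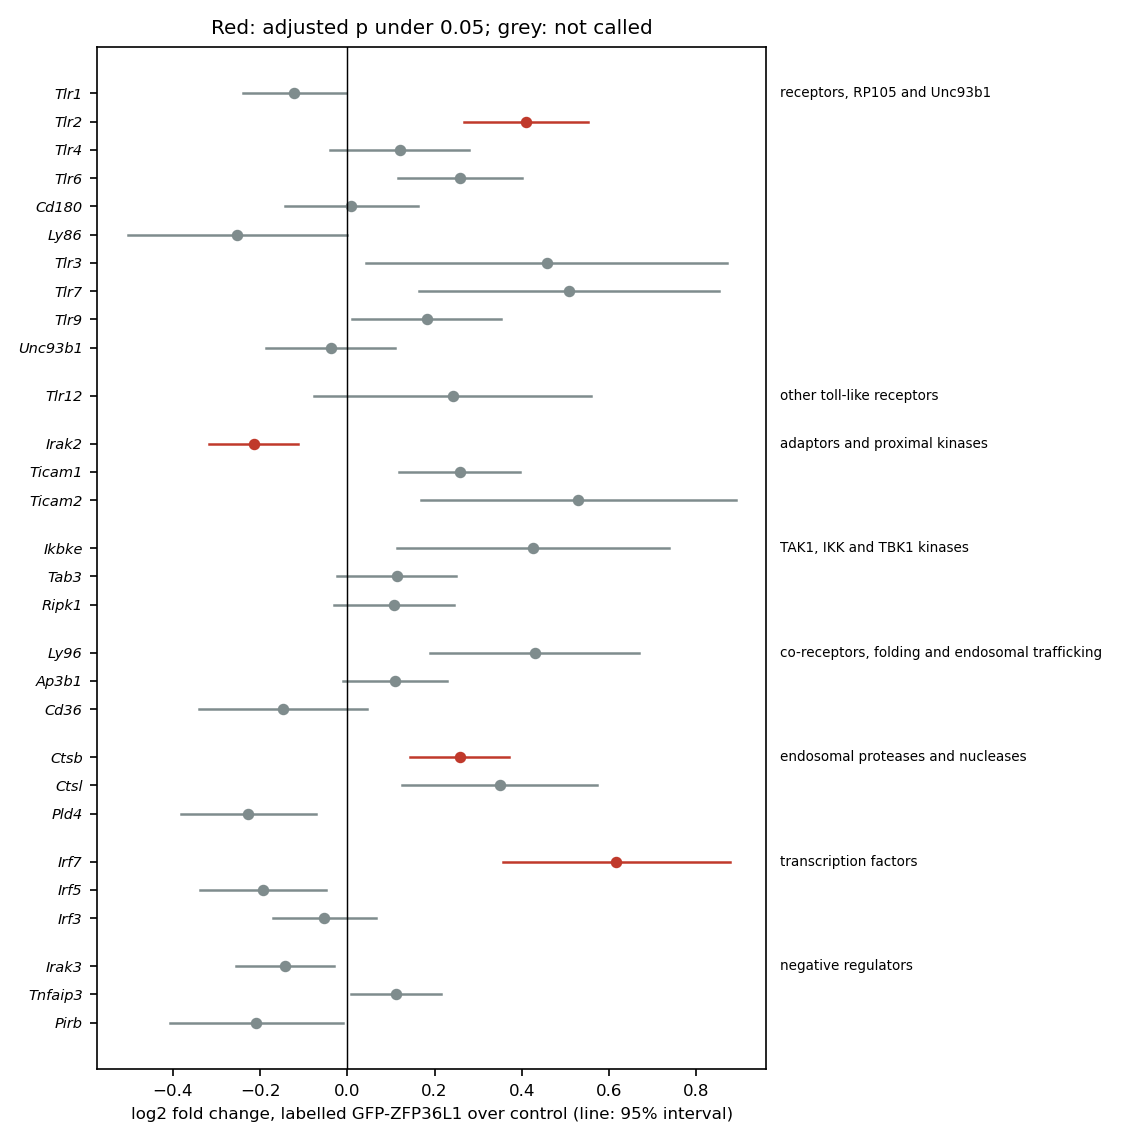
Log2 fold change of the libraries labelled GFP-ZFP36L1 over controls (x axis), with 95% intervals, for the 10 genes and the named genes of each pathway list. Red marks an adjusted p under 0.05 in edgeR, which Tlr2, Irak2, Ctsb and Irf7 reached, and only Irak2 of these lies left of 0.

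The call for Tlr2 can be read beside other settings. Of the 10 genes, 1 was called by edgeR, 3 by DESeq2 (Tlr2, Tlr6 and Tlr7) and 2 by limma voom (Tlr2 and Tlr6). With 1 surrogate variable or the title number as a term, 3 were called, namely Tlr2, Tlr6 and Ly86. These settings also called more genes throughout. Over all genes edgeR called 407, DESeq2 895 and voom 1064, and the count was 1243 with the surrogate variable and 1030 with the title number. Tlr2 stayed under the threshold in 16 of 17 alternatives. Over the 17 alternatives the adjusted p ran from 3.93e-06 to 0.0518 for Tlr2, from 0.00949 to 0.164 for Tlr6, from 0.0104 to 0.315 for Tlr7 and from 0.0225 to 0.545 for Ly86. In the authors' deposited table the adjusted p is under 0.05 for Tlr2, Tlr6 and Tlr7 among these genes.

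**Figure D5:**
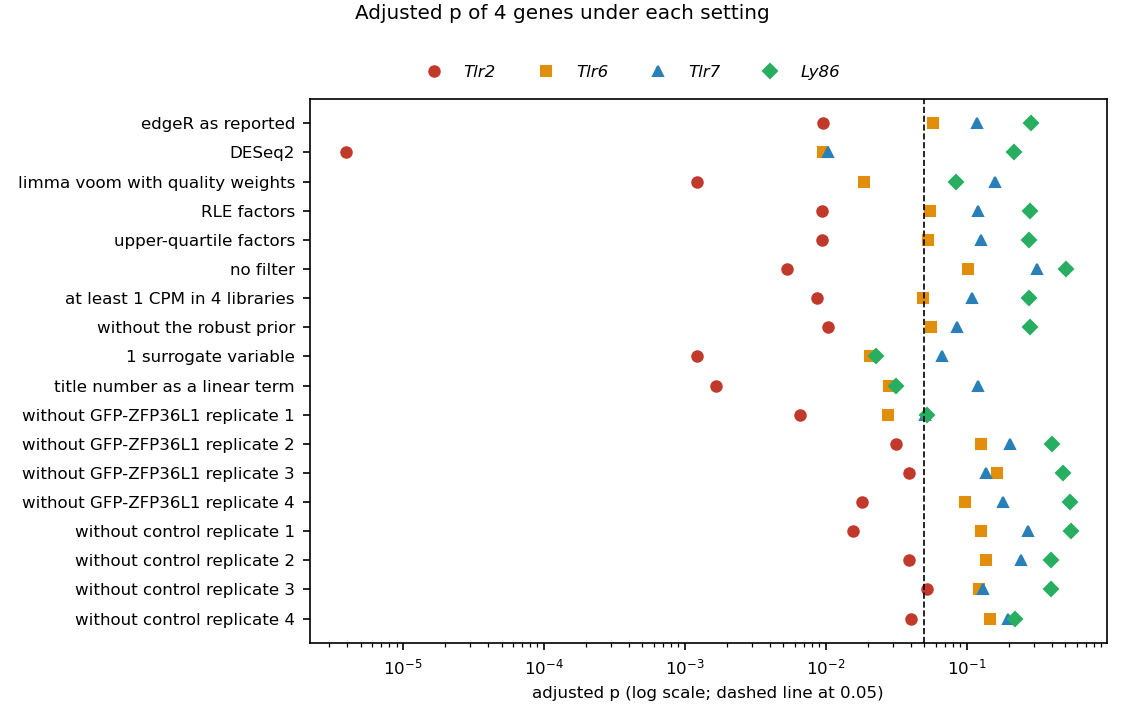
Adjusted p on a log axis for Tlr2, Tlr6, Tlr7 and Ly86 under each setting (rows), with the threshold of 0.05 as a dashed line. Tlr2 lies left of the line except without control replicate 3 (0.0518), and the others cross it under some settings.

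The labelled cell type was checked against marker lists. Markers of B cells summed to 9252 to 10593 CPM in the libraries labelled GFP-ZFP36L1 and to 10493 to 11335 CPM in the controls, and 1 of 6, Pax5, fell. Of the follicular markers, Ighd fell to 2229 to 2718 CPM in the libraries labelled GFP-ZFP36L1, against 3076 to 3220.0 CPM in the controls, and Cd55 fell to 515 to 646 CPM, against 765 to 860.2 CPM in the controls. Marginal zone markers summed to 1456 to 1811 CPM and to 1417 to 1571 CPM in those groups, and 1 of 6, Myof, rose. Most of that sum was Cr2, at 1185 to 1447 CPM and 1160 to 1299 CPM. Of the 6, 3 had an unadjusted p under 0.05, beside 17.3% of all tested genes, and DESeq2 and voom called Myof and S1pr3. S1pr3 had a log2 fold change of 0.91 (edgeR adjusted p = 0.0539), while Cd1d1 of the same list ran the other way at -0.06. The part of these shifts in the levels of Tlr2, Irf7 or Ctsb was not tested.

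TLR2 is also found on myeloid cells, so their markers stand beside its level. Macrophage and monocyte markers summed to 7.37 to 8.76 CPM in the libraries labelled GFP-ZFP36L1 and to 9.615 to 10.03 CPM in the controls, and their part in the level of Tlr2 was not tested. Of these 7 genes, 4 were under 1 CPM in all libraries. Of the 5 tested, edgeR called 0, 1 had an unadjusted p under 0.05, and DESeq2 and voom called 1 each, Adgre1, at 0.926 to 2.33 CPM in the libraries labelled GFP-ZFP36L1 and 2.66 to 3.78 CPM in the controls. Ly6c2 of the same list ran the other way, at 1.93 ± 0.43 and 1.38 ± 0.51 CPM in those groups (SD, n = 4 each), and did not pass the test. Itgam and Tyrobp, named below, are not on that list. Both were higher in the libraries labelled GFP-ZFP36L1 than in the controls (log2 fold change 0.80 and 0.59). Neutrophil markers summed to 0.123 to 0.244 CPM and to 0.141 to 0.238 CPM in those groups, with Ly6g at 0. Conventional dendritic cell markers summed to 5.011 to 5.995 CPM in the libraries labelled GFP-ZFP36L1 and to 3.68 to 5.87 CPM in the controls. Plasmacytoid dendritic cell markers, for a cell type rich in TLR7 and TLR9, summed to 28.4 to 31.6 CPM and to 24.7 to 27.9 CPM, nearly all of it Pacsin1, and the other 4 of the 5 were under 1 CPM in every library. T cell markers stayed at or under 0.491 CPM in sum, NK cell markers at or under 0.877 CPM and erythroid markers at or under 1.12 CPM in every library. B1 cell markers summed to 5.595 to 7.92 CPM and to 5.25 to 7.37 CPM in those groups. Of the 4 tested, edgeR called 1, Itgam, as higher (log2 fold change 0.80, adjusted p = 0.0395). Zbtb32 of the same list ran the other way at -0.96 (edgeR adjusted p = 0.103) and was called by voom, and Bhlhe41 was at -0.15 (0.814). Plasma cell markers summed to 322 to 352 CPM and to 307 to 326 CPM. Most of it was Irf4, at 218 to 239 CPM and 200 to 220 CPM, and Xbp1, at 85.8 to 109 CPM and 86.0 to 111 CPM. For these 5 genes edgeR made 0 calls, and 3 had an unadjusted p under 0.05, beside 17.3% of all tested genes. Jchain had a log2 fold change of -0.79 (edgeR adjusted p = 0.109) and was called by DESeq2, while Prdm1 was at 0.59 (0.12).

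By likeness of log2 CPM over the 8 libraries, the genes closest to Tlr2 among 8910 compared were Rcan3, Lurap1 and Tyrobp, with Pearson correlations of 0.99, 0.99 and 0.987. These libraries share the group difference, so genes that differ between groups score high, and the values are a description. Rcan3, a regulator of calcineurin, averaged 14.2 ± 0.41 CPM in the libraries labelled GFP-ZFP36L1 and 10.9 ± 0.47 CPM in the controls (SD, n = 4 each). Lurap1 averaged 20.3 ± 1.54 and 9.92 ± 1.57 CPM, and Tyrobp, which encodes the signalling adaptor DAP12, averaged 32.5 ± 2.0 and 21.6 ± 1.59 CPM.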

How the data were processed

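RNA of 8 samples of sorted mouse splenic follicular B cells was sequenced as paired reads of 100 bp after a stranded mRNA preparation, per the labels' protocols. Trim Galore, TopHat2 2.0.12, HTSeq, DESeq2 1.10.1 and build GRCm38 are named in the submitters' processing notes, with no settings, so whether the counting used strand is unknown here. As deposited, the authors' main table holds raw counts per gene, which all tests used. The authors also deposited normalized values, read as a signal because counts divided by them gave 1 constant per library (largest relative departure 5.71e-10), and a comparison table with log2 fold changes and p-values, printed only where named. Its test statistic is a score per gene that the authors computed, not printed here. Its log2 fold changes of Tlr2, Tlr6 and Tlr7 were smaller than the 0.41, 0.26 and 0.51 from DESeq2 as run here. The reason was not tested. Its mean column was 1.108 times (median) the mean of the 8 normalized columns. This factor does not by itself mean that other libraries were used. Tlr5 had 1 count in replicate 2 of the libraries labelled GFP-ZFP36L1 and 0 in the others. The mean column gave it 0.112, near 1 count spread over 8 libraries.

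Genes kept by filterByExpr (13035) were tested with edgeR 4.0.16 in R 4.3.3, with TMM scaling, robust quasi-likelihood and group as the only term. Standard errors are the log2 fold change over the square root of F. Alternatives used DESeq2 1.42.0, limma 3.58.1 (voom with quality weights), sva 3.50.0, other scalings and filters, and each library left out. Replicates are numbered in accession order. Named were all 10 genes, each called gene of a pathway list plus the 3 of smallest p, and for a called member the 3 of highest correlation at a mean of 5 CPM or more. The members, lists and markers were chosen with earlier results of these data known. Symbols were found for 42548 of 43629 identifiers. Promoters are RefSeq's, and windows of 300 bases were searched on both strands. The sum of the follicular marker list is not reported here.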

Additional observations from a re-analysis of the deposited data

Results flagged for a closer look

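The level of Irak3, an inhibitory kinase of the pathway, in replicate 1 of the libraries labelled GFP-ZFP36L1 was 65.8 CPM, while the other 3 of that group lay between 58.4 and 59.7 CPM. The gap divided by the range of the group was 0.834, above the 95% critical value of Dixon's test for 4 samples. Of 58 groups checked in this way it was the 1 that passed, and chance gives about 1 in 20. The controls lay between 64.8 and 68.4 CPM, so this library was within their range.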

How the results depend on the processing

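The count of called genes among the 10 was 1 as reported, 3 with DESeq2, 2 with limma voom, 2 with a filter at 1 CPM in 4 libraries, 3 with 1 surrogate variable and also 3 with a term for the title number. Leaving out each library gave 0 (without control replicate 3) to 2 (without replicate 1 of the libraries labelled GFP-ZFP36L1). Among the pathway lists 3 genes were called as reported, 9 with DESeq2, 12 with voom, 10 with the surrogate variable and 8 with the title number, and 0 to 8 with a library left out. The value was 0 without replicate 2 of the libraries labelled GFP-ZFP36L1 or without control replicate 2, 3 or 4. Over all genes the counts were 407 as reported, 895 with DESeq2, 1064 with voom, 1243 with the surrogate variable and 1030 with the title number, and 79 to 948 with a library left out. The log2 fold change of Cd180 changed sign with voom (-0.063), without replicate 1 (-0.026) or 4 (-0.027) of the libraries labelled GFP-ZFP36L1 and without control replicate 2 (-0.006), and with 1 library left out it reached at most 0.049. The cause was not tested. Of the 170 alternative values of the 10 genes, 156 kept their direction and side of the threshold, 1 lost the call, 9 gained one and 4 changed sign, and for the named pathway genes the numbers were 272, 18, 33 and 0 of 323. No paired analysis was run, and the groups share no replicate number in the labels. Title numbers alternate between the groups, and the labels do not call consecutive ones pairs. A block on consecutive numbers was possible but was not tried. Genes with 0 to 5 counts a library, such as Tlr5 and Tlr13, were too low to test at this depth.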
